A study of Mus musculus with 9 samples.

Results

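The BCL2 family of apoptosis regulators was followed in mouse primary macrophages through 10 of its genes, found by mapping the Ensembl identifiers of the deposited tables to the symbols Bcl2, Bcl2l1, Mcl1, Bax, Bak1, Bid, Bad, Bcl2l11, Pmaip1 and Bbc3. All 10 were listed among 34866 genes, and all 10 passed the filter on low values, a mean of at least 1 TPM over the libraries of a comparison. The genes were grouped by role as 3 pro-survival genes (Mcl1, Bcl2l1, Bcl2), 2 pore-forming genes (Bax, Bak1) and 5 BH3-only genes, which share only a short domain with the rest of the family (Bid, Bad, Bcl2l11, Bbc3, Pmaip1).

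The study asked how macrophages, which engulf dying cells (efferocytosis), adapt their metabolism to limited oxygen. The mRNA of 9 cultures was sequenced, with 3 biological replicates in each of 3 groups. Standard oxygen cultures were kept for 7 days in standard oxygen, acute hypoxia cultures spent their last 3 hours in 1% oxygen after standard oxygen, and chronic hypoxia cultures were kept for 7 days in 1% oxygen. All 3 groups shared the same alpha-MEM medium with serum and L929-conditioned medium, a source of macrophage growth factor. The strain, age and tissue of origin of the cells are not given in the sources used here.

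Apoptosis through mitochondria is decided by binding among these proteins. BAX and BAK open the outer mitochondrial membrane and release cytochrome c, the pro-survival proteins MCL1, BCL-XL (the product of Bcl2l1) and BCL2 hold them in check, and the BH3-only proteins tip the balance by binding the pro-survival proteins or by activating BAX and BAK. Much of this control acts on the proteins through cleavage, phosphorylation and degradation, which transcript levels do not show. MCL1 and the BCL2A1 proteins are known survival factors of myeloid cells.

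Transcript levels are given in TPM, each gene's share of the transcripts of a library corrected for gene length, so levels of different genes can be compared within a library. The depth of the libraries is unknown. Values are listed as replicates 1, 2 and 3 of each group. The sample descriptions carry digits that recur once in each group, and their meaning is not stated. The 3 recurring sets of digits are called codes X, Y and Z here. Replicate 1 of each group had code X. Code Y was on standard replicate 3 and on replicate 2 of both hypoxia groups, and code Z was on standard replicate 2 and on replicate 3 of both hypoxia groups. The libraries of code Z stood apart from the others. For example Mertk, a macrophage receptor for dying cells, had 21.8 to 33.3 TPM in libraries of codes X and Y and 2.21 to 3.37 TPM in those of code Z. Libraries of 1 code deviated together from their group means, so each comparison was fitted with limma, a linear model that pools information on the spread across genes, without a block and again with the code as a block, which compares libraries within a code. A gene is called where its adjusted p was under 0.05.

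All 8 macrophage markers reached 1 TPM in at least 1 library. Markers of T and NK cells, B cells, dendritic cells, fibroblasts, mast cells with eosinophils and erythroid cells each summed to at most 2.15 TPM in any library. The 8 neutrophil markers summed to 898 to 1595 TPM under standard oxygen, 941 to 1910 TPM under acute hypoxia and 260 to 585 TPM under chronic hypoxia. Nearly all of this was S100a8, which other myeloid cells also express, while S100a9 was at 0 in 8 libraries and at 0.23 TPM in the other. In bulk RNA, fewer cells of a type and less RNA per cell cannot be told apart.

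Mcl1 was the most abundant member in all 3 groups, and Bax, Bcl2l1 and Bak1 followed in that order. In standard oxygen the order went on with Bad, Bid, Bcl2l11, Bbc3, Pmaip1 and Bcl2. Acute hypoxia gave the same order. In chronic hypoxia Bid stood above Bad, Bbc3 above Bcl2l11, and Bcl2 above Pmaip1. Neighbours in the order did not overlap between libraries, except Bbc3 with Pmaip1 under standard oxygen and acute hypoxia, and Bid with Bad, Bbc3 with Bcl2l11 and Bcl2 with Pmaip1 under chronic hypoxia. The 3 changes of place under chronic hypoxia therefore each concerned levels that overlapped there between libraries. Within a library, Bbc3 was above Bcl2l11 in all 3 chronic libraries and below it in all standard and acute libraries. Bid was above Bad, and Bcl2 above Pmaip1, in 2 of the 3 chronic libraries.

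**Figure D1:**
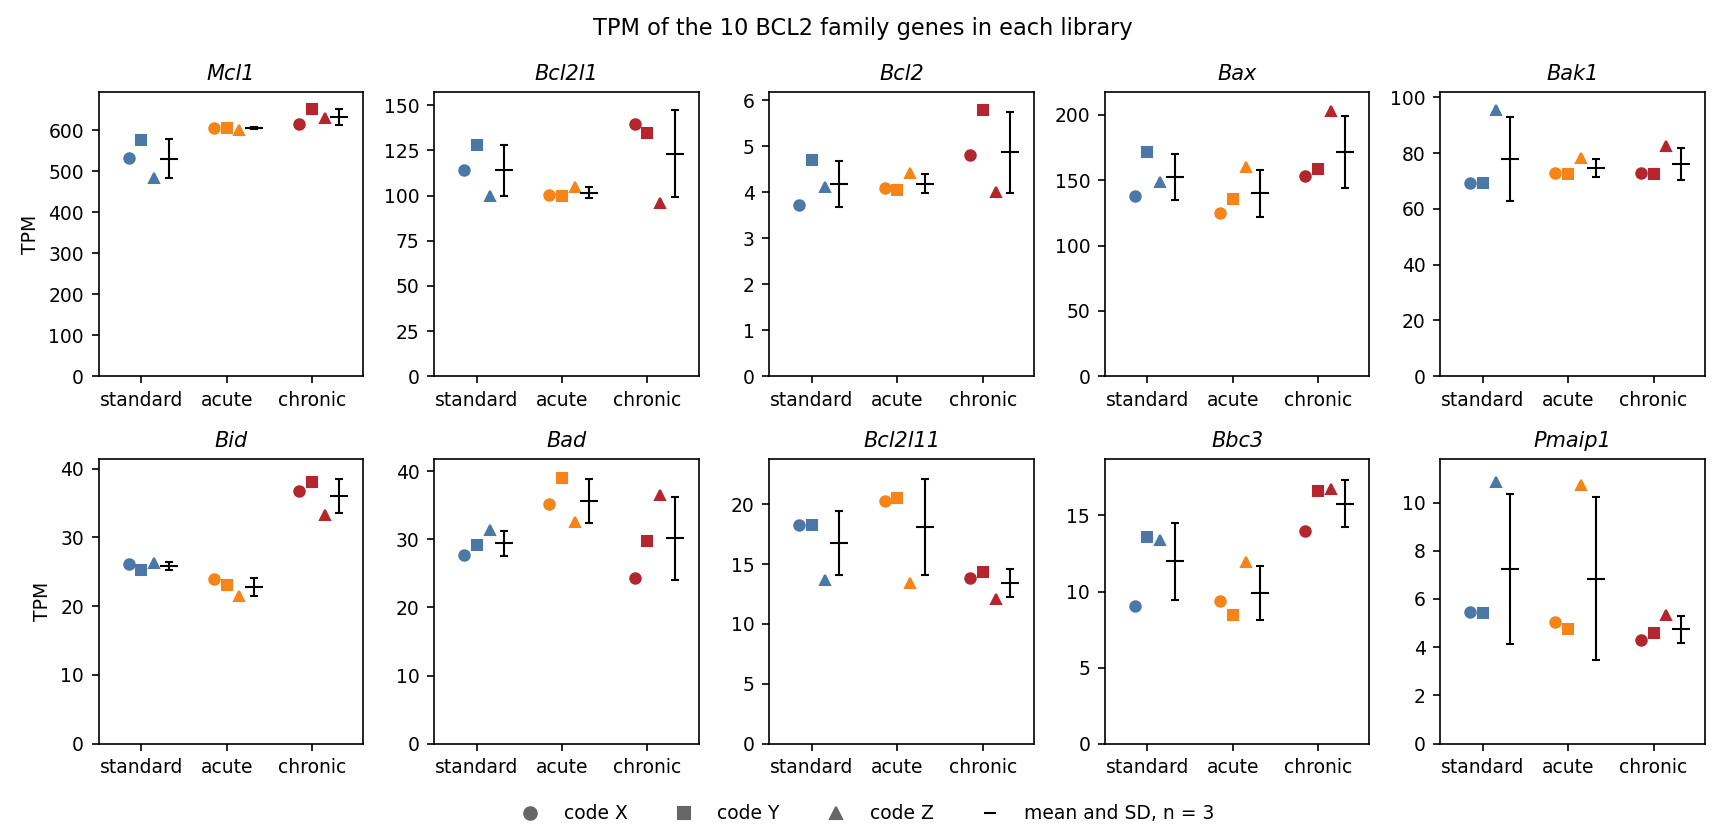
TPM of each of the 10 genes (vertical axes, each from 0) in the 9 libraries, grouped by oxygen condition, with shapes for the sample codes and bars for the mean and SD of 3 libraries. The 3 chronic libraries of Bid, at 33.3 to 38.1 TPM, lie above the 6 others, while the code Z libraries (triangles) stand apart for Pmaip1 under standard oxygen and acute hypoxia.

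Across the 10 genes, none passed a Benjamini-Hochberg adjusted p of 0.05 in limma without a block in any of the 3 comparisons. The counts at an unadjusted p under 0.05 were 1 for acute against standard, 2 for chronic against standard and 2 for chronic against acute. Of all genes, that held for 785 of 10987, 2533 of 11067 and 2305 of 11087 in the same order. Over all genes tested, 0.0273%, 2.69% and 0.695% passed the adjusted threshold in the same order. With the code as a block, 0 members passed for acute against standard, 1 for chronic against standard and 3 for chronic against acute, where 0.71%, 18.4% and 15.5% of all genes passed. The 1 of 10 for chronic against standard lies below the share of all genes and the 3 of 10 for chronic against acute above it, and with 10 genes neither count shows anything particular to the family. The comparisons share groups, and their values are therefore given side by side.

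The chronic libraries were shifted as a whole. The median log2 fold change of all genes was 0.01 for acute against standard, 0.16 for chronic against standard and 0.14 for chronic against acute. Log2 fold changes here refer to TPM + 1 and, unless said otherwise, to TPM as deposited. The median over the 10 members was -0.07, 0.13 and 0.12 in the same order. Of the 10, 3 lay above the median of all genes for acute against standard and 5 in each comparison of chronic hypoxia.

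**Figure D2:**
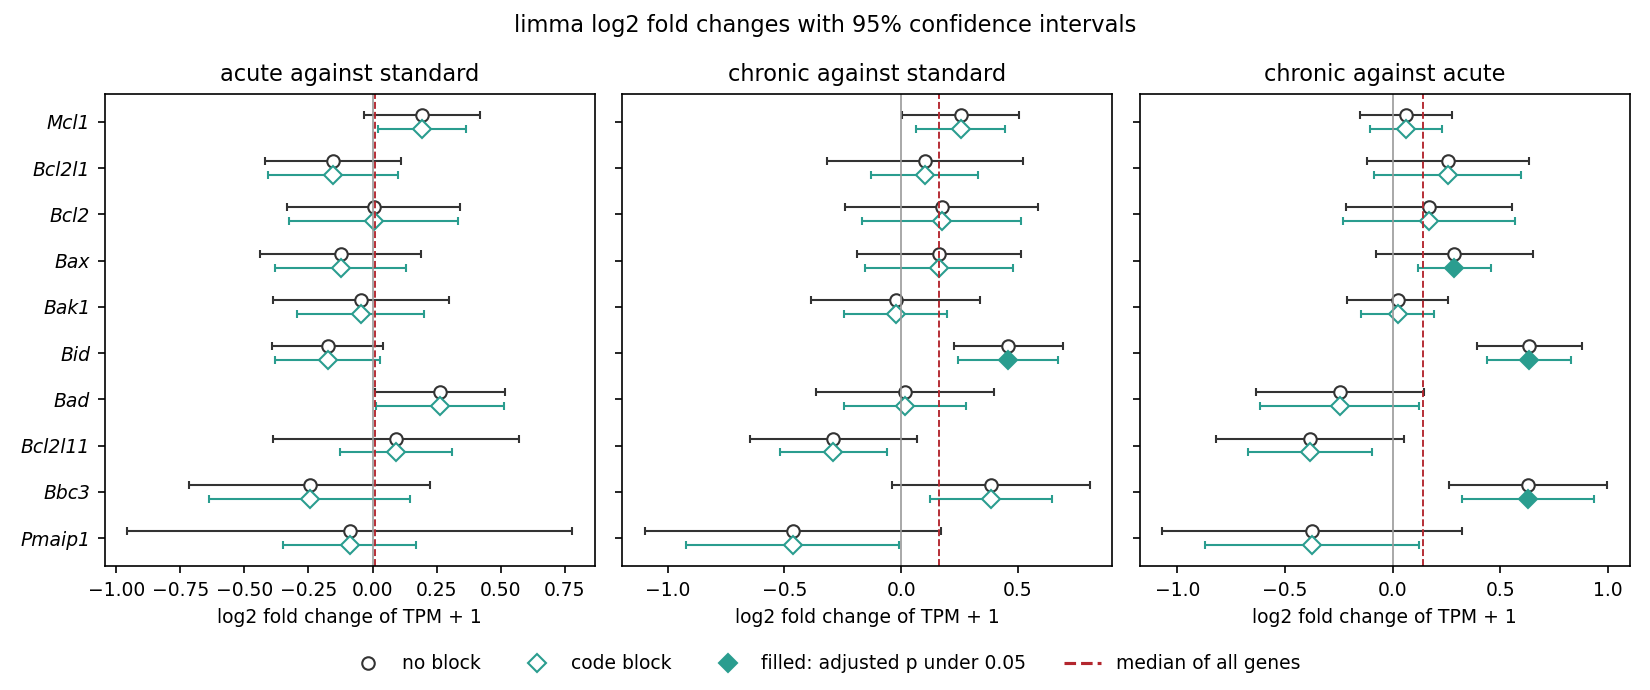
Log2 fold changes of TPM + 1 (horizontal axes) of the 10 genes in the 3 comparisons, with 95% confidence intervals from limma, without a block (circles) and with the code as a block (diamonds, filled at an adjusted p under 0.05), and the median of all genes as a dashed line. Filled diamonds are Bid in both comparisons of chronic hypoxia and Bbc3 and Bax in chronic against acute.

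Among the 3 pro-survival genes, Mcl1 held most of the transcripts in every library. Mcl1 (ENSMUSG00000038612) encodes a short-lived protein that is replaced by constant synthesis. It had 532, 483 and 577 TPM under standard oxygen, 606, 606 and 602 TPM under acute hypoxia and 614, 652 and 629 TPM under chronic hypoxia. All 6 hypoxia libraries were above all 3 standard libraries. Group means were 530 ± 47.2, 605 ± 2.67 and 632 ± 19.0 TPM (SD, n = 3). Against standard oxygen the log2 fold change was 0.19 ± 0.0943 (SE, limma adjusted p = 0.798) under acute hypoxia and 0.26 ± 0.105 (limma adjusted p = 0.214) under chronic hypoxia. Mcl1 passed in neither comparison, and with the code as a block the adjusted p of limma was 0.313 and 0.0731. It was called under 1 other setting, for chronic against standard with the block and all 9 libraries in 1 fit (limma adjusted p = 0.033). After rescaling each library by its median of ratios, the difference under chronic hypoxia was 0.08.

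Bcl2l1 (ENSMUSG00000007659) encodes BCL-XL, a pro-survival protein of the mitochondrial membrane that also exists as a shorter, pro-apoptotic splice form, which gene-level values do not separate. It had 114, 99.7 and 128 TPM under standard oxygen, 100.2, 99.8 and 105 TPM under acute hypoxia and 139.6, 134.5 and 95.7 TPM under chronic hypoxia. Among the chronic libraries the code Z library was the lowest of all 9 while the other 2 were the highest. For chronic against acute the log2 fold change was 0.26 ± 0.157 (SE, limma adjusted p = 0.401), and it was 0.45 ± 0.0689 (adjusted p = 0.018) when the 3 code Z libraries were left out. Against standard oxygen it was 0.10, and it turned to -0.08 after rescaling.

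Bcl2 (ENSMUSG00000057329), the founding member of the family, was the least abundant of the 3 pro-survival genes followed here. It had 3.73, 4.11 and 4.71 TPM under standard oxygen, 4.10, 4.04 and 4.41 TPM under acute hypoxia and 4.81, 5.78 and 4.01 TPM under chronic hypoxia. The groups overlapped in every comparison, and the widest difference was a log2 fold change of 0.17 ± 0.173 (SE, limma adjusted p = 0.588) for chronic against standard. At these levels Bcl2 held 0.64% ± 0.0895 of the summed TPM of the 3 pro-survival genes under chronic hypoxia (SD, n = 3).

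Mcl1 held 81.8% ± 0.502 of that sum under standard oxygen, 85.1% ± 0.428 under acute hypoxia and 83.2% ± 2.79 under chronic hypoxia (SD, n = 3), and such shares do not depend on how a library is scaled. In acute hypoxia the share of Mcl1 was 84.6% to 85.4%, above the 81.3% to 82.3% of standard oxygen. The share of Bcl2l1 was correspondingly 14.1% to 14.8% under acute hypoxia and 17.0% to 18.0% under standard oxygen. In chronic hypoxia the code Z library had a Mcl1 share of 86.3% and the other 2 had 81.0% and 82.3%, so chronic hypoxia overlapped both other groups. With 3 libraries against 3, an exact permutation test cannot go below a p of 0.10, and none was run on the shares. These shares leave out the pro-survival Bcl2a1 copies. Their summed TPM was 193 to 261 under standard oxygen, 222 to 267 under acute hypoxia and 120 to 320 under chronic hypoxia.

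Of the 2 pore-forming genes, Bax (ENSMUSG00000003873) lies on GRCm38 chromosome 7 (45461697 to 45466898, minus strand) and encodes a protein that moves from the cytosol to mitochondria. It had 138, 148 and 172 TPM under standard oxygen, 125, 135 and 159.9 TPM under acute hypoxia and 153, 158 and 203 TPM under chronic hypoxia. In both hypoxia groups the code Z library was the highest, and the groups overlapped. For chronic against acute, the differences within codes X, Y and Z were 0.29, 0.22 and 0.34 on the log2 scale, all in the same direction. The log2 fold change was 0.29 ± 0.152 (SE, limma adjusted p = 0.329) without a block and 0.29 ± 0.0665 (limma adjusted p = 0.046) with the code as a block. The call was lost after rescaling, with 0.13 and an adjusted p of 0.261 in limma with the block. Bax passed in neither comparison with standard oxygen, where its log2 fold change was -0.12 under acute hypoxia and 0.16 under chronic hypoxia, the latter turning to -0.02 after rescaling. Bax shares 11.7% of its 75-base stretches with Gm45808, and such reads cannot be assigned with certainty.

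Bak1 (ENSMUSG00000057789) encodes BAK, which resides in the mitochondrial membrane and is restrained there by MCL1 and BCL-XL. It had 69.3, 95.4 and 69.1 TPM under standard oxygen, 72.9, 72.7 and 78.3 TPM under acute hypoxia and 72.7, 72.5 and 82.6 TPM under chronic hypoxia. The code Z library was the highest in each group and by far the highest under standard oxygen. The log2 fold change was between -0.05 and 0.02 in the 3 comparisons, with 95% confidence intervals in limma of -0.39 to 0.30 for acute against standard, -0.39 to 0.34 for chronic against standard and -0.21 to 0.26 for chronic against acute. The ratio of Bax to Bak1 was 2.01 ± 0.467 under standard oxygen, 1.87 ± 0.164 under acute hypoxia and 2.25 ± 0.185 under chronic hypoxia (SD, n = 3). In chronic hypoxia the 3 ratios were 2.11 to 2.46 and under acute hypoxia 1.71 to 2.04. Bak1 shares 9.51% of its 75-base stretches with Ggnbp1, on the opposite strand.

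Bid (ENSMUSG00000004446) showed the clearest separation of the 10 genes. It lies on chromosome 6 (120891930 to 120916853, minus strand) and encodes a BH3-only protein that caspase-8 cleaves, which links death receptors to mitochondria. It had 26.1, 26.3 and 25.2 TPM under standard oxygen, 24.0, 23.1 and 21.4 TPM under acute hypoxia and 36.7, 38.1 and 33.3 TPM under chronic hypoxia. All chronic libraries were above all others, and all acute libraries were below all standard libraries. Group means were 25.9 ± 0.577, 22.8 ± 1.31 and 36.0 ± 2.47 TPM (SD, n = 3).

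For chronic against acute the log2 fold change of Bid was 0.63 ± 0.102 (SE, limma adjusted p = 0.0578) without a block and 0.63 ± 0.0773 (limma adjusted p = 0.0136) with the code as a block. For chronic against standard it was 0.46 ± 0.0976 (limma adjusted p = 0.0648) without a block and 0.46 ± 0.0823 (limma adjusted p = 0.0272) with the block. Bid thus missed the threshold without a block and passed it with the code in the fit, and in each code the difference had the same sign. Relative to the median of all genes the differences were 0.49 and 0.30. With rescaling and the block, chronic against acute kept its call at 0.48 (limma adjusted p = 0.0258), and chronic against standard lost it at 0.29 (limma adjusted p = 0.0863).

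Without the 3 code Z libraries, Bid was called in limma without a block, at 0.65 against acute hypoxia (adjusted p = 0.0118) and 0.53 against standard oxygen (adjusted p = 0.015). Leaving out chronic replicate 3 alone also gave calls, at 0.69 (limma adjusted p = 0.0384) and 0.51 (limma adjusted p = 0.0484). For acute against standard the log2 fold change of Bid was -0.17 ± 0.0908 (SE, limma adjusted p = 0.829), and the groups did not overlap. Bid shares 17.7% of its exonic bases with Bcl2l13 on the opposite strand, and 23.7% of the 75-base stretches in its longest transcript recur in Bcl2l13. The strand setting of the counting is not given in the sources used here, so reads of the pair may be mixed. Bcl2l13, another family member found on mitochondria, had 17.0, 26.3 and 12.9 TPM under standard oxygen, 21.9, 19.8 and 25.2 TPM under acute hypoxia and 16.6, 14.8 and 20.3 TPM under chronic hypoxia. Its log2 fold change for chronic against acute was -0.36 (limma adjusted p = 0.0458 with the block), opposite in sign to that of Bid.

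Bbc3 (ENSMUSG00000002083) encodes PUMA, a BH3-only protein that binds every pro-survival member and is a classical p53 target. It lies on chromosome 7 (16308393 to 16318205, plus strand). It had 9.07, 13.4 and 13.5 TPM under standard oxygen, 9.35, 8.46 and 11.9 TPM under acute hypoxia and 14.0, 16.6 and 16.8 TPM under chronic hypoxia. All chronic libraries were above all others, while standard oxygen and acute hypoxia overlapped. For chronic against acute the log2 fold change was 0.63 ± 0.154 (SE, limma adjusted p = 0.103) without a block and 0.63 ± 0.122 (limma adjusted p = 0.0313) with the block. With rescaling and the block it was 0.49 with a limma adjusted p of 0.0652, and without the code Z libraries and without a block it was 0.71 with a limma adjusted p of 0.025. Against standard oxygen it was 0.38 ± 0.177 (limma adjusted p = 0.255), and 0.0599 was the adjusted p of limma with the block.

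Bcl2l11 (ENSMUSG00000027381) encodes BIM, a BH3-only protein that rises after withdrawal of growth factors and restrains the survival of myeloid cells. It had 18.3, 13.7 and 18.3 TPM under standard oxygen, 20.3, 20.5 and 13.4 TPM under acute hypoxia and 13.8, 14.3 and 12.1 TPM under chronic hypoxia. The code Z library was the lowest in each group, and the groups overlapped. Within codes X, Y and Z, the difference for chronic against acute was -0.52, -0.49 and -0.14 on the log2 scale. The same differences against standard oxygen were -0.38, -0.33 and -0.16.

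The log2 fold change of Bcl2l11 was -0.38 ± 0.182 (SE, limma adjusted p = 0.287) for chronic against acute and -0.29 ± 0.150 (limma adjusted p = 0.302) for chronic against standard. With the block the adjusted p of limma was 0.0777 and 0.0810. Bcl2l11 passed once the block was joined by rescaling, at -0.53 (limma adjusted p = 0.0493) and -0.46 (limma adjusted p = 0.0438). Without the code Z libraries it passed against acute hypoxia at -0.50 (limma adjusted p = 0.0249) and stood at -0.36 (limma adjusted p = 0.0506) against standard oxygen.

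Pmaip1 (ENSMUSG00000024521) encodes NOXA, a BH3-only protein that binds MCL1 and promotes its degradation. It had 5.44, 10.8 and 5.43 TPM under standard oxygen, 5.03, 4.76 and 10.7 TPM under acute hypoxia and 4.29, 4.57 and 5.35 TPM under chronic hypoxia. The code Z library was far above the other 2 under standard oxygen and acute hypoxia, and under chronic hypoxia it was close to them. All chronic libraries were below all standard libraries. For chronic against standard the log2 fold change was -0.46 ± 0.265 (SE, limma adjusted p = 0.347), and it was -0.25 (limma adjusted p = 0.226) without the code Z libraries. Within code Z the difference was -0.90, against -0.28 and -0.21 within codes X and Y.

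Bad (ENSMUSG00000024959) encodes a BH3-only protein whose binding is switched by phosphorylation in response to growth factors and glucose. It had 27.8, 31.4 and 29.2 TPM under standard oxygen, 35.3, 39.0 and 32.6 TPM under acute hypoxia and 24.3, 29.7 and 36.5 TPM under chronic hypoxia. All acute libraries were above all standard libraries, and chronic hypoxia spanned both groups. For acute against standard the log2 fold change was 0.26 ± 0.106 (SE, unadjusted p = 0.0437 and limma adjusted p = 0.677). It was the only member with an unadjusted p under 0.05 in that comparison without a block. Chronic against standard gave 0.02, which turned to -0.16 after rescaling. Bad shares 20.5% of its exonic bases with Gpr137 on the opposite strand. In its longest transcript, 0% of the 75-base stretches recur in other listed genes.

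Counted by separation of the libraries, Mcl1 and Bad were higher and Bid was lower under acute hypoxia than under standard oxygen, with the other 7 overlapping, where 12.5% of all genes did not overlap. In chronic hypoxia Mcl1, Bid and Bbc3 were higher and Pmaip1 was lower than under standard oxygen, 4 of 10 where 29.6% of all genes did not overlap. Against acute hypoxia Mcl1, Bid and Bbc3 were higher under chronic hypoxia, 3 of 10 beside 27.8% of all genes, although the log2 fold change of Mcl1 there turned from 0.06 to -0.09 after rescaling. Both chronic counts are near the share of all genes.

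**Figure D3:**
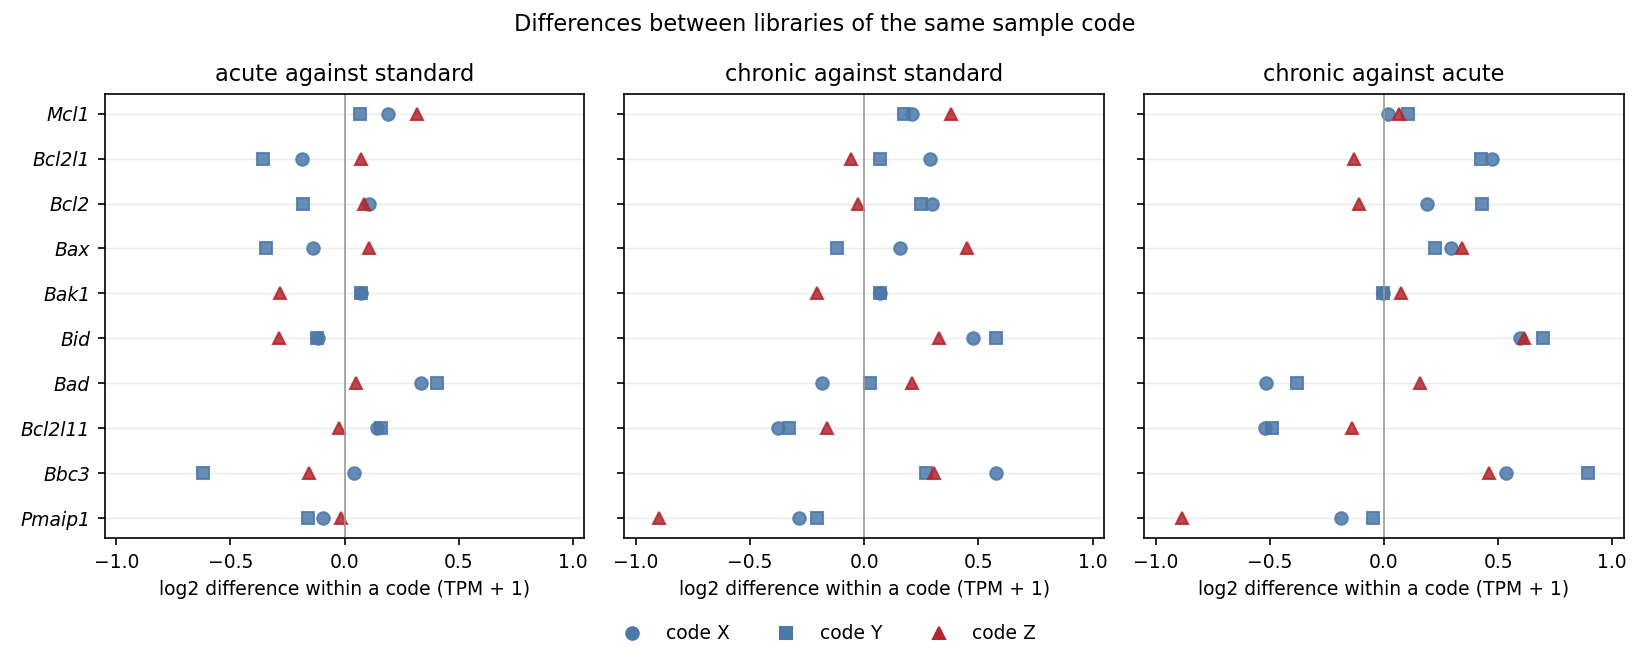
Differences in log2(TPM + 1) between libraries of the same code (horizontal axes) for the 10 genes in the 3 comparisons, with one point per code. Bid lies between 0.59 and 0.70 in all 3 codes for chronic against acute, while Bcl2l1, Bcl2 and Bad have code Z on the other side of 0 from codes X and Y there.

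Within the BH3-only genes, shares of the summed TPM were set side by side without a test. Bid held 28.4% ± 1.5 of the summed TPM of the 5 genes under standard oxygen, 24.5% ± 0.933 under acute hypoxia and 36.1% ± 3.76 under chronic hypoxia (SD, n = 3). Bcl2l11 held 18.4%, 19.3% and 13.5% in the same order. The ratio of Bid to Bcl2l11 was 1.38 to 1.93 under standard oxygen, 1.13 to 1.59 under acute hypoxia and 2.66 to 2.75 under chronic hypoxia. The chronic libraries thus had the highest ratios, including that of code Z, and spread least around their mean of 2.69 ± 0.0552 (SD, n = 3). Bad held the largest share under standard oxygen and acute hypoxia, with means of 32.2% and 38.1%, and 29.99% under chronic hypoxia. The summed TPM of the 5 genes was 86.7 to 95.6 under standard oxygen, 90.1 to 95.9 under acute hypoxia and 93.2 to 104 under chronic hypoxia.

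**Figure D4:**
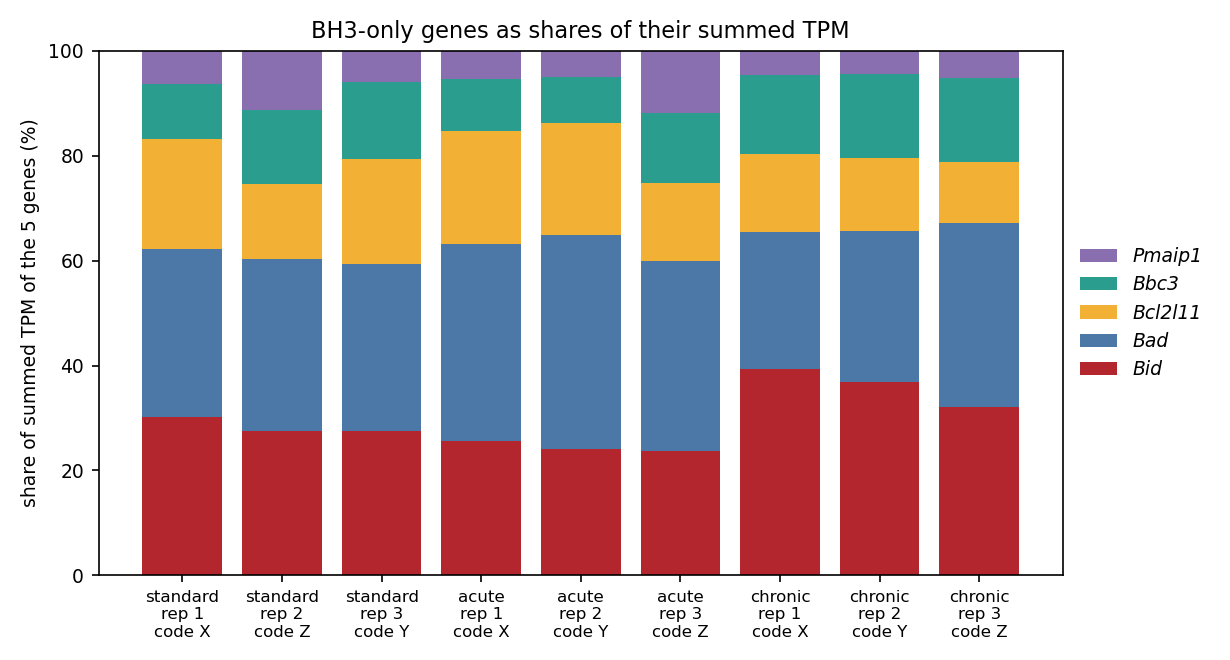
Shares of the summed TPM of the 5 BH3-only genes (vertical axis, percent) in each library. The share of Bid is 32.02% to 39.4% in the 3 chronic libraries and 23.8% to 30.1% in the other 6.

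The promoters of the 3 genes called for chronic against acute with the block, Bid, Bbc3 and Bax, are shown here with that of Bnip3, the family gene with the widest difference between standard oxygen and hypoxia. They come from the RefSeq promoter table of build GRCm38.p6, as the bases before a listed start site, up to the first annotated exon base, 5′ to 3′ on the gene's strand. Of the start sites listed for Bbc3, the most downstream is shown. Capitals mark ACGTG and GCGTG on either strand (CACGT and CACGC on the printed strand), the core letters of the hypoxia response element to which hypoxia-inducible factors bind. The motifs can overlap, as in CACGTG, which reads ACGTG on both strands.
Bid, chr6:120916854-120917074, minus strand: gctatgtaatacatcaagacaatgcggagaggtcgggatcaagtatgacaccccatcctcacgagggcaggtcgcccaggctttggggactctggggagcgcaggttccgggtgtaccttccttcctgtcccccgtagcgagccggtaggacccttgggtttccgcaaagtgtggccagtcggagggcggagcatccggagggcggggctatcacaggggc
Bbc3, chr7:16310181-16310430, plus strand: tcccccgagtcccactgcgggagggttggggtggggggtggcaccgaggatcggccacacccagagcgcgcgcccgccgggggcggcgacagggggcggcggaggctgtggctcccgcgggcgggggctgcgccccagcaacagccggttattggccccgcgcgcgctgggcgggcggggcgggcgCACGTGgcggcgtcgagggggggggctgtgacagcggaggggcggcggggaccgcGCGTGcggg
Bax, chr7:45466899-45467148, minus strand: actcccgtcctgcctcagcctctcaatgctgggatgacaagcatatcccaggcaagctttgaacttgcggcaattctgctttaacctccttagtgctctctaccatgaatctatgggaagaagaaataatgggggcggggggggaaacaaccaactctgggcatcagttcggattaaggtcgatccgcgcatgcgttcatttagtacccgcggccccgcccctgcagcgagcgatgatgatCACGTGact
Bnip3, chr7:138909520-138909756, minus strand: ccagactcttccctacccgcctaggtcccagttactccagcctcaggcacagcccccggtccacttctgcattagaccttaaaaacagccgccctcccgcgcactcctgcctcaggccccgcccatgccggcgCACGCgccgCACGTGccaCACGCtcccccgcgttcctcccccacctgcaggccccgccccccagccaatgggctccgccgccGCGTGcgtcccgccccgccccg

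The window of Bid held none of these letters, that of Bax held 1 stretch, that of Bbc3 held 2 and that of Bnip3 held 4. Upstream of the 2 other start sites listed for Bbc3 there were 4 and 1. All start sites listed for Bbc3 lie inside its annotated span. Members that were not called with the block held them too, with 3 and 1 in the windows of Bad. Those of Bcl2l11 held 3 and 0, and those of Bcl2l1 held 0, 0 and 1. The windows of Bcl2, Mcl1 and Bak1 held none, and no window was listed for Pmaip1. For windows not printed above, all 250 bases were counted, exons included. All 250 bases of the Bak1 window and of the Bcl2l1 windows with 0 lay in annotated exons. So did 230 bases of the Bad window with 1. Among 32851 RefSeq windows of 250 bases, 16.6% held ACGTG, 28.2% held GCGTG and 38.6% held either. These are matches of letters in short windows, and no binding was measured.

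Of 15 further genes of the BCL2 family, 10 passed the filter on low values. Bcl2l10 was at 0 in all libraries, and Hrk, Bok, Bcl2l14 and Bcl2l15 were below the filter. For chronic against standard, 2 of the 10 were called in limma without a block, Bnip3 higher and Bcl2a1d lower, and 3 were called with the block, which added Bcl2a1a, lower. Of all genes, 2.69% and 18.4% were called in the same order. The median log2 fold change of the 10 was 0.27 in that comparison, beside 0.16 for all genes.

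Bnip3 encodes an atypical BH3 protein of mitochondria that promotes mitophagy and is a classical hypoxia target. It had 57.9, 102 and 62.6 TPM under standard oxygen, 301, 303 and 417 TPM under acute hypoxia and 529, 516 and 411 TPM under chronic hypoxia. All hypoxia libraries were far above all standard libraries. The log2 fold change was 2.73 ± 0.231 (SE, limma adjusted p = 0.0077) for chronic against standard. Without standard replicate 3 or chronic replicate 2 the adjusted p of limma was 0.0589 and 0.0654, at 2.63 and 2.68. For acute against standard it was 2.21 ± 0.243 (limma adjusted p = 0.0568) without a block, and limma with the block gave an adjusted p of 0.00814. The acute difference within codes X, Y and Z was 2.36, 2.25 and 2.02 on the log2 scale, so it was of several-fold size in each. For Bnip3, 15.3% of the 75-base stretches recur in other genes.

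Bcl2a1d belongs to a set of near-identical copies of a pro-survival gene expressed in myeloid cells. It had 24.1, 29.6 and 22.7 TPM under standard oxygen, 21.2, 17.1 and 36.9 TPM under acute hypoxia and 8.57, 7.64 and 10.5 TPM under chronic hypoxia. All chronic libraries were below all others. The log2 fold change for chronic against standard was -1.42 ± 0.159 (SE, limma adjusted p = 0.0146). The call was lost without standard replicate 1 or 3 or chronic replicate 1 or 2, where the adjusted p of limma was 0.0818 to 0.0926 at values of -1.5 to -1.33. With the replicate number in the sample titles as a block it was also lost, at an adjusted p of 0.136 in limma. Its part in any change of the copies together is uncertain, since 67.6% of its 75-base stretches occur in other genes and reads can be divided differently among copies. Bcl2a1b, the most abundant copy, had 188, 117 and 182 TPM under standard oxygen, 194, 190.3 and 139 TPM under acute hypoxia and 269, 283 and 85.7 TPM under chronic hypoxia. Among the chronic libraries the code Z library of Bcl2a1b was the lowest of all 9 and the other 2 were the highest. The summed TPM of Bcl2a1a, Bcl2a1b and Bcl2a1d was 193 to 261 under standard oxygen and 313, 320 and 120.4 under chronic hypoxia. S100a8 was also lower under chronic hypoxia, at 258 to 582 TPM against 895 to 1593 TPM under standard oxygen. Whether it bears on the Bcl2a1 copies was not tested.

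**Figure D5:**
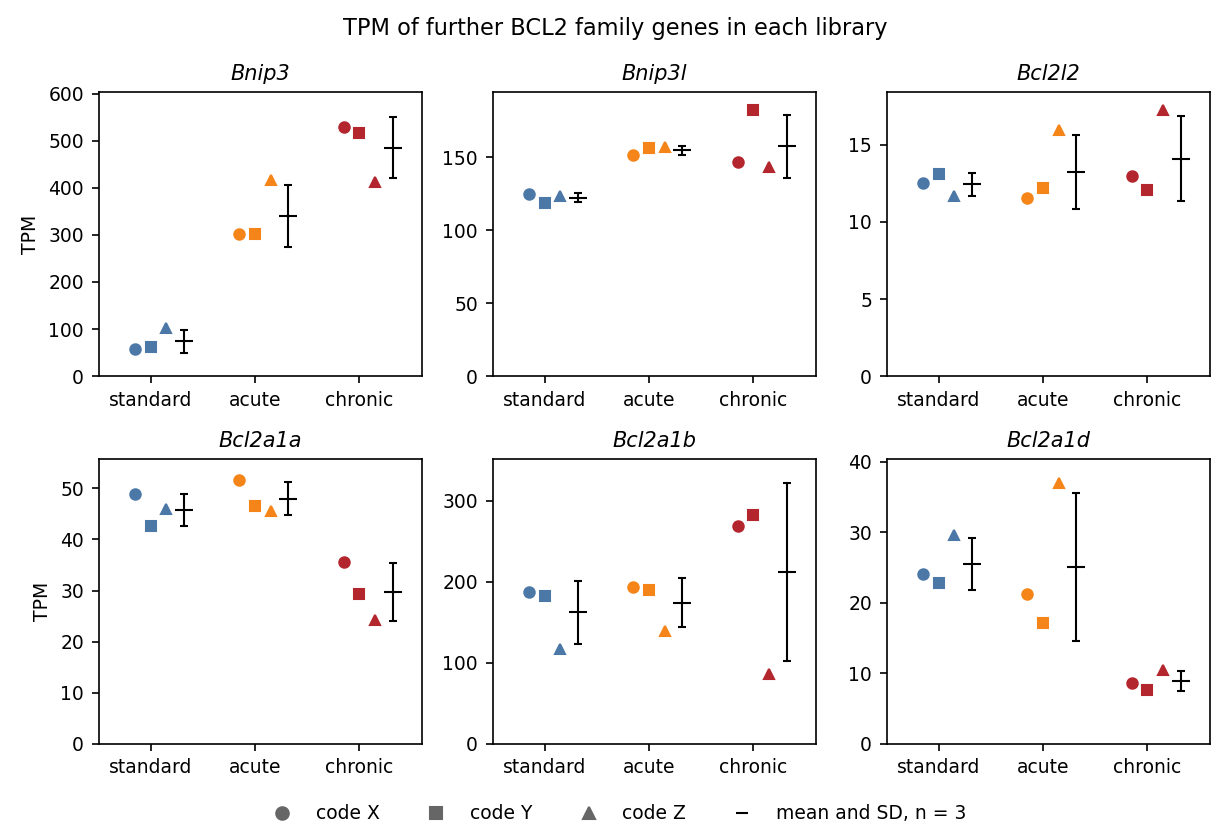
TPM of 6 further family genes (vertical axes, each from 0) in the 9 libraries, with shapes for the sample codes and bars for the mean and SD of 3 libraries. Bnip3 is at 58 to 102 TPM under standard oxygen and at 301 to 529 TPM in hypoxia, and the code Z library of Bcl2a1b goes the other way from codes X and Y under chronic hypoxia.

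Downstream of BAX and BAK, 17 of 17 genes of the mitochondrial apoptosis machinery were tested, with a median of 0.17 for chronic against standard. For chronic against standard, 1 was called without a block and 5 with the block, all higher, beside 2.69% and 18.4% of all genes. After rescaling the median was -0.0043, and 0 were called without a block and 2 with it. Of all 11067 genes tested, 227 were called after rescaling without a block and 1272 with it. Casp6, an executioner caspase, was the one called without a block before rescaling. It had 14.7, 15.5 and 14.4 TPM under standard oxygen, 20.5, 22.4 and 22.3 TPM under acute hypoxia and 29.2, 25.3 and 23.0 TPM under chronic hypoxia, with no overlap between the 3 groups. The log2 fold change was 0.75 ± 0.120 (SE, limma adjusted p = 0.0366). The call was lost under 4 other settings without a block, rescaling (0.58, limma adjusted p = 0.0975), no filter on low values (0.0633), eBayes without trend (0.0507) and quantile normalization (0.11). It was also lost with the replicate number in the titles as a block (limma adjusted p = 0.169) and without standard replicate 1 or 3 or chronic replicate 1 or 2 (0.122 to 0.174). Vdac1, a channel of the outer mitochondrial membrane, was called with the block at 0.38 (limma adjusted p = 0.0223), and with the block and rescaling it was 0.21 (limma adjusted p = 0.0931). The most abundant gene of the list was Vdac2, a channel that holds BAK, at 280 ± 5.68 TPM under standard oxygen and 309 ± 1.72 TPM under chronic hypoxia (SD, n = 3), and it was not called. The other 3 calls with the block, Apaf1, Birc2 and Birc5, are named outside the rule.

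Upstream of the BH3-only genes, 17 of 18 p53 and stress inducers were tested, with a median of 0.04 for chronic against standard, and none was called in any comparison with all libraries, no block and no rescaling. Of these, 5 had an unadjusted p under 0.05 for chronic against standard, beside 2533 of all 11067 genes tested. With the block, 2 were called higher and 3 lower in that comparison, beside 18.4% of all genes. After rescaling the median was -0.14, with 0 called higher and 4 lower with the block, and 0 higher and 2 lower without it. Of all 11067 genes tested, 622 were called higher and 650 lower with the block and rescaling, and 111 and 116 with rescaling alone. Mdm2, the p53 target that restrains p53, had 113, 136 and 114 TPM under standard oxygen, 105, 94.1 and 155 TPM under acute hypoxia and 66.3, 71.0 and 97.0 TPM under chronic hypoxia. All chronic libraries of Mdm2 were below all standard libraries, and with the block it fell by 0.64 on the log2 scale (limma adjusted p = 0.0154). After rescaling and without a block it fell by 0.82 (limma adjusted p = 0.0384). Cdkn1a, another classical p53 target, stood at 181 ± 55.8 TPM under standard oxygen and 161 ± 49.6 TPM under chronic hypoxia (SD, n = 3). Without a block its log2 fold change was -0.17 (limma adjusted p = 0.752). Within codes X, Y and Z the difference was -0.15, -0.19 and -0.17. With the block and rescaling Cdkn1a was called, at -0.35 (limma adjusted p = 0.0321). For chronic against acute it was called with the block, at -0.39 (limma adjusted p = 0.0226). Bbc3 and Pmaip1, which are among the p53 targets of the family but not all of them, had log2 fold changes of opposite sign. For chronic against standard these were 0.38 and -0.46, and neither was called.

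Among 9 genes of death receptor signalling and necroptosis, many of which act around caspase-8, the protease that cleaves BID, none was called in any comparison without a block or with the code as a block. With the block and all 9 libraries in 1 fit, 2 were called higher for chronic against standard, beside 26.3% of all genes called. Without the code Z libraries 2 were also called higher, Ripk1 at 0.50 and Casp8 at 0.41 (limma adjusted p = 0.0212 and 0.0194), beside 21.1% of all genes called. Both were named after their values were seen. With all libraries and no block 2 had an unadjusted p under 0.05 for chronic against standard, beside 2533 of all 11067 genes tested. The median of the 9 genes was 0.13. Tnfrsf1a, a TNF receptor, had 108 ± 8.29 TPM under standard oxygen and 118 ± 4.74 TPM under chronic hypoxia, and Cflar, the inhibitor of caspase-8, had 77.2 ± 7.71 and 73.5 ± 7.45 TPM (SD, n = 3). Of 6 genes that control the turnover of MCL1 protein, 4 were tested, with a median of 0.26 for chronic against standard. Huwe1, a ubiquitin ligase of MCL1, was called with the block for chronic against standard, at 0.50 (limma adjusted p = 0.0399). The call was lost with the block and rescaling, at 0.33 (limma adjusted p = 0.115). Without a block Huwe1 was not called, neither with all libraries nor without the code Z libraries, where it stood at 0.53 (limma adjusted p = 0.0866). Usp9x, a deubiquitinase that stabilises MCL1, had 45.5 ± 5.71 TPM under standard oxygen and 56.8 ± 2.93 TPM under chronic hypoxia (SD, n = 3) and was not called (limma adjusted p = 0.179). Without the code Z libraries it was called, at 0.41 (limma adjusted p = 0.0325), as it was with the block and all 9 libraries in 1 fit, at 0.32 (limma adjusted p = 0.0282).

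Bid and Bbc3 had the widest range of group means among the members with at least 5 TPM. Over the 9 libraries, the genes most like Bid by Pearson r of log2(TPM + 1), out of 8860 genes, were Plxnd1 (r = 0.988), Pdia4 (r = 0.984), Ptpn12 (r = 0.982), Ascc1 (r = 0.982) and Myl12b (r = 0.980). Each of these genes had its highest mean under chronic hypoxia and its lowest under acute hypoxia, as Bid had. That follows from picking them by likeness to Bid over the same libraries. Pdia4, a chaperone of the endoplasmic reticulum, went from 25.5 TPM under standard oxygen and 22.8 TPM under acute hypoxia to 47.6 TPM under chronic hypoxia. Those most like Bbc3 were Ciao2b (r = 0.962), Hmg20b (r = 0.961), Tyk2 (r = 0.955), Klc1 (r = 0.954) and Hnrnph3 (r = 0.950). These are descriptions over libraries that share groups and codes.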

How the data were processed

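The authors deposited TPM per gene in 3 tables, 1 for each pair of groups, and each of the 9 libraries had identical values in both tables that held it. Per the submitters' processing notes, FastQC, STAR and featureCounts were used with GRCm38, and per the labels' protocols the libraries were TruSeq mRNA with paired 75-base reads. The tool that gave TPM, the annotation and the strand setting are not given in the sources used here. TPM keeps no depth, so no count test was used.

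Symbols matched 34582 of 34866 identifiers. Genes whose TPM averaged at least 1 over the 6 libraries of a comparison were fitted with limma 3.58.1 in R 4.3.3 (lmFit, eBayes with trend, two-sided) on log2(TPM + 1), with Benjamini-Hochberg adjustment over all genes and a threshold of 0.05. The fit without a block was tested on simulated data with noise drawn independently for each library. Deviations shared within a code were not simulated, and the fit with the block was not tested. The sample code was used as a block because deviations from the group means correlated between libraries of 1 code in every pair (r = 0.37 to 0.63 across genes). The title number gave r from -0.51 to 0.39 in the comparisons with standard oxygen.

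All 10 members are named. Of each further list, the text names the 2 highest and 2 lowest genes called for chronic against standard with at least 5 TPM, or the 2 most abundant where fewer than 2 were called. The other genes were named after their values were seen. The members and lists were chosen with earlier results of these data known. Overlaps and shared stretches used GENCODE M21, on GRCm38. Alternatives were a pseudocount of 0.1 or 5, filters, eBayes without trend, rescalings, all 9 libraries in 1 fit, blocks and leaving out each replicate. Leaving out code Z was added after seeing the data.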

Additional observations from a re-analysis of the deposited data

How the results depend on the processing

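For acute against standard, 0 members were called under all 13 other settings and with each replicate left out, where 0% to 2.95% of all genes passed. For chronic against standard the count was 1 with all 9 libraries in 1 fit, where 764 of all 11065 genes passed. The count was 1 with the code block (2039 of 11067 genes) and 1 with the code block and rescaling (1272 of 11067). It was 2 with the code block and all 9 libraries (2909 of 11065) and 1 without code Z (2300 of 10924). Without each replicate in turn it was 0 to 1, where 1 to 522 genes passed. For chronic against acute it was 1 with a mean TPM of at least 5, where 89 of all 8928 genes passed. It was 1 with all 9 libraries in 1 fit (415 of 11065 genes) and 3 with the code block (1724 of 11087). With the code block and rescaling it was 2 (1088 of 11087). It was 3 with the code block and all 9 libraries (2450 of 11065) and 4 without code Z (1788 of 10952). Without each replicate in turn it was 0 to 1, where 1 to 308 genes passed. Pairing by title number as a replicate block gave 0, 0 and 3 in the order of the comparisons above, where 0%, 0.00904% and 15.5% of all genes passed. The title number pairs acute and chronic libraries as the code does. In each setting with a count above 0 Bid was among those called, except under the code block with rescaling for chronic against standard, where Bcl2l11 was called.

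The sign of 24 member values turned under settings other than leaving out a replicate, all in values not called, and the cause was not tested. Under median-of-ratios rescaling, with or without the code block, acute against standard became -0.011 for Bcl2 and -0.015 for Tnfrsf1a. Under the same settings, chronic against standard became -0.077 for Bcl2l1, -0.015 for Bax, -0.16 for Bad, -0.038 for Vdac2 and -0.044 for Tnfrsf1a, and chronic against acute became -0.093 for Mcl1, -0.13 for Bak1 and -0.025 for Tnfrsf1a. Under quantile normalization, Bcl2 became -0.028, -0.037 and -0.0086 in acute against standard, chronic against standard and chronic against acute. It also gave -0.034 for Bcl2l1 and -0.16 for Bad in chronic against standard, -0.069 for Mcl1 and -0.092 for Bak1 in chronic against acute, and -0.015 for Tnfrsf1a in acute against standard. Without code Z, acute against standard became -0.036 for Bcl2 and 0.071 for Bak1, chronic against standard 0.068 for Bak1, -0.080 for Bad and 0.049 for Cflar, and chronic against acute -0.0027 for Bak1 and 0.11 for Cflar.

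Without each replicate in turn, the log2 fold change ranged for acute against standard from -0.059 to 0.076 for Bcl2, from -0.12 to 0.11 for Bak1, from -0.040 to 0.28 for Bcl2l11 and from -0.42 to 0.20 for Pmaip1. In that comparison it ranged from -0.39 to 0.14 for Bcl2a1d, from -0.28 to 0.077 for Mdm2, from -0.042 to 0.066 for Tnfrsf1a and from -0.13 to 0.0039 for Cflar. For chronic against standard it ranged from -0.10 to 0.13 for Bak1, from -0.13 to 0.16 for Bad, from -0.41 to 0.067 for Cdkn1a and from -0.15 to 0.0017 for Cflar. For chronic against acute it ranged from -0.037 to 0.058 for Bak1, from -0.099 to 0.045 for Cflar and from -0.038 to 0.034 for Usp9x.

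With 3 libraries a group and unknown depth, the spread between libraries is the only measure of error here.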
